A study of Mus musculus with 4 samples.

Results

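Prostaglandin synthesis and response were followed in intestinal mesenchymal stromal cells (MSC) through 9 genes. These genes were chosen by name, with earlier results of these data known. They are the cyclooxygenases *Ptgs1* and *Ptgs2*, the terminal synthases *Ptges*, *Ptgis* and *Ptgds*, the degrading enzyme *Hpgd*, and the prostaglandin E receptors *Ptger2*, *Ptger3* and *Ptger4*. All 9 had a row among the 28692 genes counted, and 8 had UMIs (unique molecular identifiers, each standing for a captured transcript). *Ptgds*, a prostaglandin D synthase, had 0 of the 134326937 UMIs of all libraries, which allows a level of up to 0.0223 CPM (the UMIs of a gene per 1000000 UMIs of the cells summed). The same was true of 8541 gene rows (29.8%), so *Ptgds* was not detectable at this depth.

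Cyclooxygenases convert arachidonic acid to prostaglandin H, from which terminal synthases make the separate prostanoids: *Ptges* encodes an inducible prostaglandin E synthase and *Ptgis* the prostacyclin synthase. *Ptgs1* is usually described as the constitutive cyclooxygenase and *Ptgs2* as the one induced by growth factors, cytokines and injury. Prostaglandin E acts through G protein-coupled EP receptors, is known for supporting barrier function and repair of the gut epithelium, and is inactivated by the 15-hydroxyprostaglandin dehydrogenase that *Hpgd* encodes.

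The MSC came from the lamina propria (LP) of the small intestine and colon of untreated female C57BL6/Nrj mice of 8 to 10 weeks, with the external muscle layer removed. Each intestine gave 2 droplet libraries (replicates 1 and 2) from 2 experiments, and 3 mice were pooled in each experiment. Live cells had been sorted as integrin β1+ and negative for CD45, Ter119, CD31, BP3, EpCAM and L1CAM, which removes most blood, endothelial, epithelial and glial cells. Both groups share this strain, sex, age and sort, and they differ by intestine. Per the paper, preparation also differed: dithiothreitol was added during removal of the epithelium for colon only. Digestion was done with constant shaking for small intestine and with a magnetic stirrer for large intestine. Effects of the intestine and of these steps cannot be told apart here.

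Cells were assigned to 5 classes by the UMIs of marker genes, none of which is 1 of the 9 genes: PDGFRahi fibroblasts (FB), CD81+ FB, PDGFRalo FB (the remaining FB), smooth muscle cells (SMC) and pericytes. A class was reached by 26218 of 32049 cells (81.81%). Of the defining markers, *Pdgfra*, *Myh11* and *Rgs5* were where the names place them. *Pdgfra* was at 2099 and 1617 CPM of their class and library in small intestinal and 949 and 647 CPM in colonic PDGFRahi FB, and at 0 to 253 CPM in every other class. *Myh11* was at 2432 to 3085 CPM in SMC, and *Rgs5* at 3114 to 5253 CPM in pericytes. Other markers were less separate. Those of CD81+ FB summed to 5634 and 3164 CPM in small intestinal PDGFRalo FB, against 10425 and 7270 CPM in small intestinal CD81+ FB. SMC of small intestine replicate 2 had 12897 CPM of fibroblast markers, against 6441 CPM of SMC markers. Libraries held 14341443 to 52269372 UMIs and 1772 to 15237 cells, with the smaller numbers of cells in replicate 1 of both intestines. The file headers name Cell Ranger 3.0.2 for both replicate 1 libraries and 3.1.0 for both replicate 2 libraries, so ratios of colon to small intestine are also given within a replicate number. Same-numbered libraries shared 8 (replicate 1) and 69 (replicate 2) cell barcodes. The pericytes of small intestine replicate 2 were only 24 cells with a median of 1226.5 UMIs and lacked several of the 9 genes, and a result that rests on them is given also without pericytes. In such sums of cells, fewer expressing cells and less RNA per cell cannot be told apart except where shares of cells are given.

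Most of the 9 genes had their highest level in FB, and within FB in a class that was not the same for every gene. In colon, *Ptgs1*, *Ptgs2*, *Ptges*, *Ptgis*, *Hpgd* and *Ptger2* had their highest mean level in PDGFRahi FB, *Ptger4* in PDGFRalo FB and *Ptger3* in SMC. In small intestine, *Ptgs1*, *Ptgis* and *Ptger2* were highest in PDGFRahi FB, *Ptgs2*, *Ptges* and *Ptger4* in PDGFRalo FB, *Hpgd* in CD81+ FB and *Ptger3* in SMC. Levels are compared between cells for 1 gene at a time and not between genes.

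**Figure D1:**
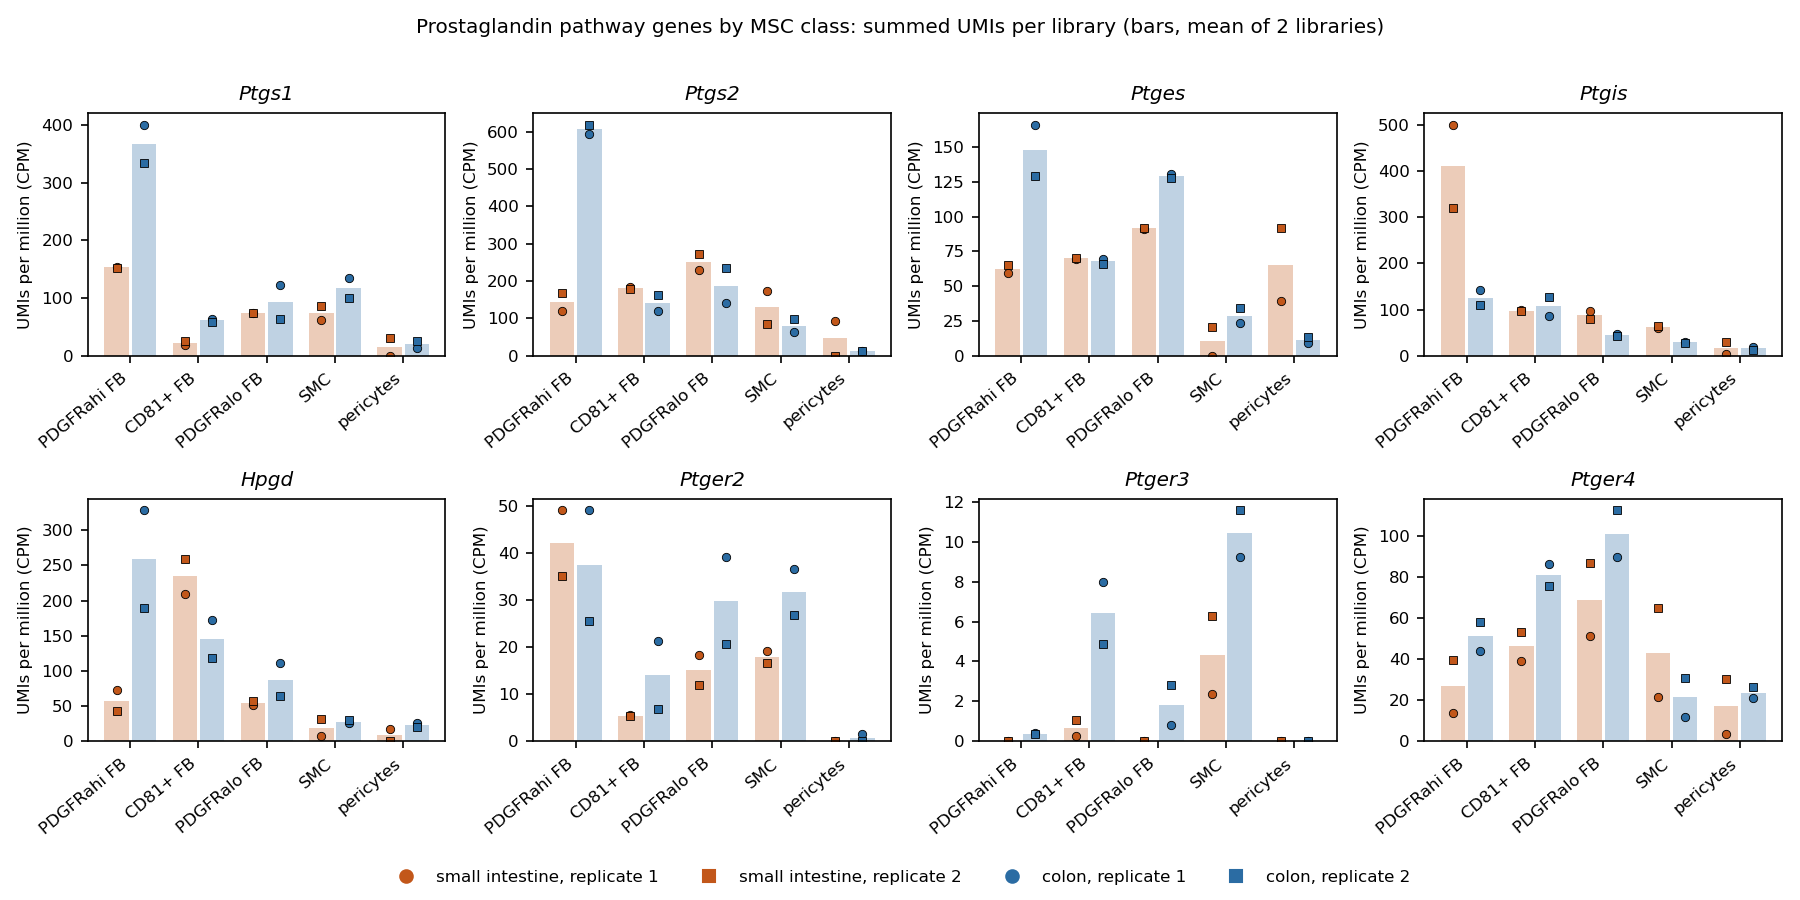
Level of each gene (CPM, linear axis from 0) in the 5 MSC classes, 1 panel per gene, with bars at the mean of 2 libraries and a point for each library. *Ptgs2* stands at 593 and 619 CPM in colonic PDGFRahi FB against 120 and 167 CPM in the small intestinal ones, *Hpgd* in small intestine stands highest in CD81+ FB at 210 and 260 CPM, and *Ptgds*, at 0 in all, is not drawn.

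The first comparison asked whether a class expressed the genes at another level in colon than in small intestine. Of 30 tests of the members that passed the filter on low counts, 0 were called by edgeR's quasi-likelihood test. A call needed an adjusted p (Benjamini-Hochberg) under 0.05 together with a change of more than 1.5 on the log2 scale. Of the same 30 tests, 11 had an unadjusted p under 0.05, and DESeq2 called 4. That unadjusted cut was passed by 1423 of 11848 genes in PDGFRahi FB and by a share of all genes of 8.88% in CD81+ FB, 10.2% in PDGFRalo FB and 8.86% in SMC. With the replicate number as a block, edgeR called 4 of the 30, which were *Ptgs2* (log2 value 2.23), *Ptgis* (-1.54) and *Hpgd* (2.30) in PDGFRahi FB and *Ptger3* (2.64) in CD81+ FB, while all genes called in PDGFRahi FB went from 141 to 899. Over all genes tested and without the block, the share called was 1.19% in PDGFRahi FB, 0.0163% in CD81+ FB, 0.449% in PDGFRalo FB and 0.376% in SMC. In pericytes 0.0% were called (0 of 3762 genes by edgeR, 127 with an unadjusted p under 0.05 and 4 called by DESeq2), and none of the 9 genes passed the filter there. The second comparison asked where a gene stood among the classes of its own intestine, and there 10 of 40 tests in small intestine and 18 of 40 in colon were called. Of all genes, 3.56% to 9.69% were called by class in small intestine and 5.66% to 11.0% in colon. The last comparison asked whether that standing differed between the intestines, and 5 of 40 tests passed an adjusted p of 0.05, where the share of all genes was 5.28% in PDGFRahi FB, 1.29% in CD81+ FB, 0.462% in PDGFRalo FB, 0.571% in SMC and 0.634% in pericytes. Settings without pericytes were added after the data were seen. The p-values of the comparison between the intestines measure the spread between 2 libraries per intestine, each from pooled mice. In the class contrasts and their differences the library was a block, so those p-values measure the spread left among the class by library sums.

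**Figure D2:**
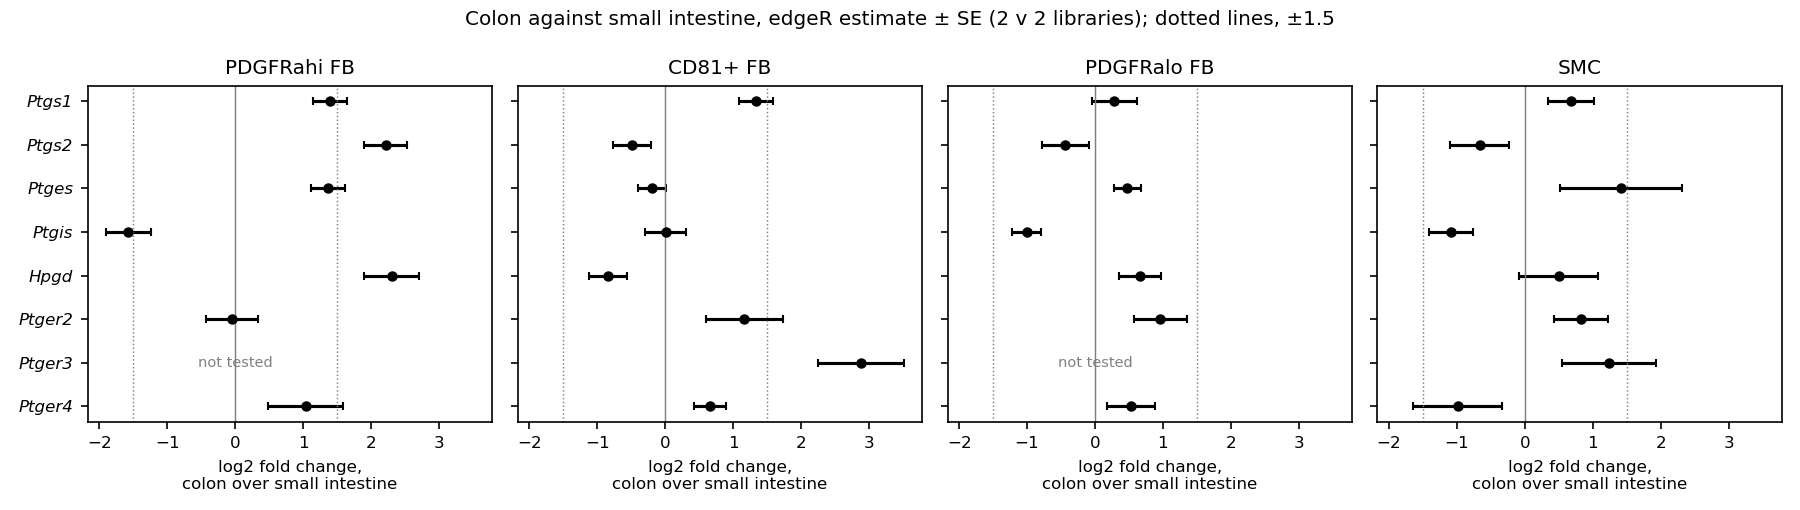
Colon over small intestine on the log2 scale (x axis) for each gene (y axis) in the 4 classes where any member was tested, as the edgeR estimate with bars of 1 SE from 2 libraries per intestine and dotted lines at 1.5 in either direction. In PDGFRahi FB, *Ptgs2* (2.22) and *Hpgd* (2.30) lie farthest to the colon side and *Ptgis* (-1.57) to the small intestinal side, and none of the values drawn was called.

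*Ptgs1*, which lies on chromosome 2 (36230426 to 36252272, plus strand, GRCm38), had its highest level per UMI in PDGFRahi FB of both intestines. Its level in these cells was 153 CPM in both replicates of small intestine, and 401 and 333 CPM in replicates 1 and 2 of colon. The groups did not overlap, and the fitted difference was 1.40 on the log2 scale (SE 0.25), which did not pass the adjusted test (adjusted p = 0.0925, edgeR). Within replicate 1 the log2 ratio of CPM was 1.39, and within replicate 2 it was 1.13.

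Against the mean of the other classes of its intestine, *Ptgs1* was higher in PDGFRahi FB by 2.43 (SE 0.23, adjusted p = 1.74e-08) in small intestine and by 2.71 (SE 0.14, adjusted p = 1.17e-13) in colon on the log2 scale, both called by edgeR. Of all genes tested, 8.36% were called for this class in small intestine and 8.8% in colon. Without pericytes the values were 1.37 and 2.02, of which the small intestinal one was below the fold threshold. Colonic PDGFRahi FB made up 31.7% to 32.6% of the gated colonic cells and held 70.8% to 70.9% of their *Ptgs1* UMIs. In small intestine PDGFRahi FB held 28.8% to 40.9% of them, less in each library than the more numerous PDGFRalo FB (41.6% to 52.3%). SMC and PDGFRalo FB came next in colon, at 136 and 99.7 CPM and at 122 and 64.1 CPM, and their ranges overlapped. CD81+ FB had 18.7 and 25.1 CPM (small intestine) and 63.7 and 58.7 CPM (colon), a fitted difference of 1.34 (SE 0.25, adjusted p = 0.172) with the groups apart. Pericytes had the lowest mean, overlapping with CD81+ FB in small intestine, from 0 and 1 UMI (small intestine) and 9 and 4 UMIs (colon), and were called lower than the other classes in colon by 3.20 on the log2 scale (SE 0.36, adjusted p = 1.97e-07), where 11.0% of all genes were called. In small intestine, where 9.69% of genes were called for pericytes, *Ptgs1*, *Ptgis* and *Ptger2* were called lower from 0 to 1 UMIs a library, and each call was lost without replicate 1. In colon pericytes were lower for *Ptgs2*, *Ptges*, *Ptgis*, *Hpgd* and *Ptger2* as well, and the calls of *Ptgs2*, *Hpgd* and *Ptger2* were lost without colon replicate 1.

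*Ptgs2* (chromosome 1, 150100031 to 150108227, plus strand) had another leading class in each intestine. In PDGFRahi FB its level was 120 and 167 CPM in small intestine and 593 and 619 CPM in colon (replicates 1 and 2). Both colon libraries thus lay above both small intestine libraries, with a fitted difference of 2.22 (SE 0.32, adjusted p = 0.0622), or 4.64-fold, that did not pass the adjusted test in edgeR. Leaving out colon replicate 1 or 2 gave 2.33 and 2.11, both called, and DESeq2 called it at 2.21. The log2 ratio within replicates was 2.30 and 1.89. In PDGFRalo FB the direction was the other way in both replicate numbers, with 230 and 273 CPM in small intestine, 141 and 234 CPM in colon and ratios of -0.71 and -0.23, but the groups overlapped and the fitted value of -0.43 (SE 0.35, adjusted p = 0.819) was within the spread.

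Among the classes of the small intestine, PDGFRalo FB had the highest *Ptgs2* level, CD81+ FB followed at 184 and 178 CPM, and PDGFRahi FB overlapped with SMC (174 and 85.6 CPM). In colon, PDGFRahi FB stood apart from every other class, since the next, PDGFRalo FB, reached at most 234 CPM. The class contrast of PDGFRahi FB was 3.06 in colon (SE 0.21, adjusted p = 6.06e-08, called) and -0.17 in small intestine (SE 0.25, adjusted p = 0.693). Their difference was 3.24 (SE 0.36, adjusted p = 9.04e-05) in edgeR's test of the difference. Without small intestine replicate 1 that difference was -0.06, where the small intestinal pericytes left had 0 *Ptgs2* UMIs. Without pericytes it was 2.75 (SE 0.29, adjusted p = 3.31e-04), and 2.37 to 3.18 with each library also left out in turn, each of these passing the test.

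*Ptgs2* is itself known as an immediate early gene, so the levels of other genes of that kind are given for the same cells. The summed level of 12 immediate early genes (*Fos*, *Junb*, *Egr1* and others) in PDGFRahi FB was 14630 and 23600 CPM in small intestine and 43439 and 46243 CPM in colon. In CD81+ FB, where *Ptgs2* was lower in both colon libraries than in both small intestine libraries, the same sum was 29546 and 34093 CPM in small intestine and 45526 and 53373 CPM in colon. Of these 12 genes, 0 were called between the intestines in PDGFRahi FB by edgeR, where 1.19% of all genes were. Their median log2 fold change was 1.39 against 0.01 over all genes. In the difference of class effects for PDGFRahi FB 5 of the 12 passed, all higher. Of all 12782 genes, 675 (5.28%) passed there, 342 of them higher. The part of these 12 genes in the *Ptgs2* result was not tested.

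The share of cells with a UMI gave the same order. After every cell was thinned to 1500 UMIs, *Ptgs2* was found in 12.1% (95% interval 7.67 to 18.0, exact Clopper-Pearson) and 15.7% (13.9 to 17.6) of small intestinal PDGFRahi FB, and in 32.6% (29.0 to 36.4) and 34.6% (33.0 to 36.3) of the colonic ones. Of the 179, 1709, 641 and 3487 cells, 173, 1479, 641 and 3386 were deep enough to be thinned, and intervals cover counting error only. Without thinning the shares were 30.2% and 22.9% (small intestine) and 58.2% and 49.8% (colon), at median depths of 8963, 2230, 10432 and 3945 UMIs. In endothelial cells that passed the sort, the thinned share was 0.59% in small intestine replicate 1 (median 4386 UMIs) and 0.437% in colon replicate 1 (median 5048.5 UMIs). For *Ptgs1* the thinned shares were 22.5% and 20.6% in small intestinal and 39.6% and 37.0% in colonic PDGFRahi FB, against 5.6% and 8.3% in the same endothelial cells. Whether the UMIs of endothelial cells are background or their own expression was not tested, so these shares are no floor.

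Both cyclooxygenases were found together mainly in colonic PDGFRahi FB. At 1500 UMIs per cell, 15.4% and 14.3% of colonic PDGFRahi FB had a UMI of each gene, against 13.0% and 12.5% from the product of the separate shares. In small intestinal PDGFRahi FB the share was 1.73% and 3.25%, against 2.41% and 3.44%. In CD81+ FB it was 0.447% to 1.41% over the 4 libraries, where *Ptgs2* alone was the more frequent state.

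**Figure D3:**
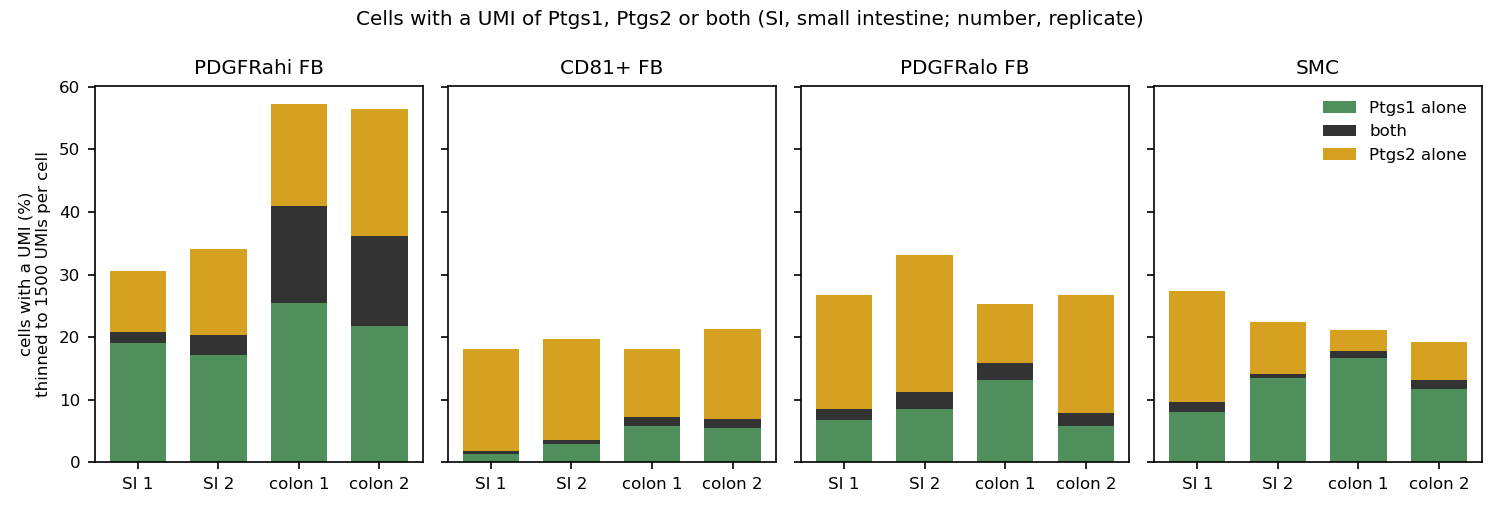
Share of cells (%, y axis) with a UMI of *Ptgs1* alone, of both cyclooxygenases or of *Ptgs2* alone, stacked, in each library and in 4 classes, with cells thinned to 1500 UMIs. Both genes are found in 15.4% and 14.3% of colonic PDGFRahi FB and in 1.73% and 3.25% of small intestinal PDGFRahi FB.

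*Ptges* (chromosome 2, 30889471 to 30929863, minus strand, as all gene spans here from GENCODE) was at 59.7 and 65.4 CPM in small intestinal and at 166 and 129 CPM in colonic PDGFRahi FB. The groups did not overlap, and the difference of 1.37 on the log2 scale (SE 0.25, adjusted p = 0.0943) was not called. Within replicates it was 1.48 and 0.98. CD81+ FB showed no such gap, at 69.5 and 70.4 CPM in small intestine and 69.6 and 66.0 CPM in colon, while PDGFRalo FB had 91.1 and 91.9 CPM against 131 and 128 CPM. In colon both PDGFRahi FB (1.86, SE 0.16, adjusted p = 2.87e-09) and PDGFRalo FB (1.74, SE 0.16, adjusted p = 5.07e-08) were called above the other classes, and their ranges overlapped. Of all genes, 5.66% were called for colonic PDGFRalo FB and 4.73% for the small intestinal class. Without pericytes both fell below the fold threshold, at 1.13 and 1.01. The difference of the PDGFRahi effects was 1.46 (SE 0.32, adjusted p = 6.30e-03), but turned to -0.62 without small intestine replicate 2, lost its call without colon replicate 1 (1.22) and was 0.77 (adjusted p = 0.237) without pericytes. SMC were called lower in small intestine (-2.68, SE 0.45, adjusted p = 2.75e-04), where 3.56% of genes were called, from 0 and 10 UMIs.

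The upstream sequences of *Ptgs1*, *Ptgs2* and *Ptges* are shown because these genes of successive steps had their highest colonic mean in the same cells. Each is the 250 bases before the annotated start (RefSeq, GRCm38.p6), read 5′ to 3′ on the strand of the gene, at chr2:36230176-36230425 (plus strand), chr1:150099781-150100030 (plus strand) and chr2:30903298-30903547 (minus strand). The RefSeq start of *Ptges* lies inside the span given above, which is from GENCODE and reaches farther upstream. Capitals mark GC boxes (GGGCGG, searched on both strands).
Ptgs1: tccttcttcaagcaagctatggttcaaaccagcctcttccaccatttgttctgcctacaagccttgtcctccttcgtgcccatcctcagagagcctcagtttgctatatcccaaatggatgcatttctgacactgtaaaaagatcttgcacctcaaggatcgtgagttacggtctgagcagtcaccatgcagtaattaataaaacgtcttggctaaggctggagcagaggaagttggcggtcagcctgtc
Ptgs2: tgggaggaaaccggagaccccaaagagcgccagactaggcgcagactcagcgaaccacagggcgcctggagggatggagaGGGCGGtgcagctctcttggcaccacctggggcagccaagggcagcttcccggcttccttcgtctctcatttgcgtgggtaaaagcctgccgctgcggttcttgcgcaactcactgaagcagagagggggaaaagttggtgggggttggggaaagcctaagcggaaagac
Ptges: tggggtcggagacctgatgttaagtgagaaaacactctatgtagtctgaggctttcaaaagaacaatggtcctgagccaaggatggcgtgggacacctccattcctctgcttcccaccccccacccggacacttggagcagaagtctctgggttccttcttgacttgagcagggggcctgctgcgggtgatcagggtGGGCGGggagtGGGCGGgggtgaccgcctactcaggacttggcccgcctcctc
Upstream sequences were found for 8 of the 9 genes, all but *Ptgis*. A GC box began 170 bases before the start of *Ptgs2* and 53 and 42 bases before that of *Ptges*, and *Ptgs1* had none, where 32.7% of all 32851 upstream sequences of this length held 1 or more. No TATA box (TATAAA, 12.4% of all), CCAAT box (CCAAT, 33.8%), E-box (CACGTG, 6.02%), cAMP response element (TGACGTCA, 1.55%) or AP-1 site (TGACTCA, 4.46%) was matched letter for letter in these windows. A match to such letters describes the sequence and does not show that a factor binds there.

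*Ptgis* (chromosome 2, 167191805 to 167240604, minus strand) ran the other way between the intestines. Its level in PDGFRahi FB was 501 and 321 CPM in small intestine and 142 and 109 CPM in colon. The groups were apart, with a fitted difference of -1.57 (SE 0.33, adjusted p = 0.122) and ratios of -1.82 and -1.56 within replicates. DESeq2 called it at -1.58. PDGFRalo FB (96.8 and 79.8 against 46.5 and 42.4 CPM, -1.01, SE 0.22, adjusted p = 0.189) and SMC (59.8 and 64.7 against 30.4 and 27.8 CPM, -1.09, SE 0.33, adjusted p = 0.345) had the same direction in both replicate numbers, and CD81+ FB did not (98.1 and 96.3 against 86.6 and 128 CPM).

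*Ptgis* was called above the other classes in PDGFRahi FB of both intestines, by 3.08 (SE 0.19, adjusted p = 2.13e-11) in small intestine and 1.63 (SE 0.15, adjusted p = 1.78e-08) in colon. The difference of these effects was -1.46 (SE 0.32, adjusted p = 6.03e-03). Without pericytes the class effects were 2.05 and 1.20, of which the colonic one lost its call, and the difference was -0.85 (adjusted p = 0.0363). The difference lost its call without small intestine replicate 1 (-0.70) or colon replicate 1 (-1.46). In colon, CD81+ FB were also called higher for *Ptgis* (1.54, SE 0.16, adjusted p = 9.46e-08), where 7.47% of genes were called, and were below the threshold without colon replicate 2 (1.11) and without pericytes (1.12).

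*Hpgd* (chromosome 8, 56294585 to 56321043, plus strand), whose product ends prostaglandin signalling, was highest in CD81+ FB of the small intestine and in PDGFRahi FB of the colon. In CD81+ FB its level was 210 and 260 CPM in small intestine and 172 and 118 CPM in colon. In PDGFRahi FB it was 72.3 and 42.8 CPM in small intestine and 329 and 189 CPM in colon. Neither pair of groups overlapped, and the 2 classes moved in opposite directions in each replicate number, by 2.19 and 2.14 in PDGFRahi FB and by -0.29 and -1.13 in CD81+ FB. The fitted differences between the intestines were 2.30 (SE 0.41, adjusted p = 0.0888) in PDGFRahi FB and -0.84 (SE 0.28, adjusted p = 0.453) in CD81+ FB, neither of them called. In PDGFRahi FB the call was reached without colon replicate 1 (1.95) or colon replicate 2 (2.60), and with DESeq2 (2.29).

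Among the classes of small intestine, CD81+ FB were called higher for *Hpgd* by 3.26 (SE 0.23, adjusted p = 8.06e-08), and by 2.90 without pericytes, where 7.49% of all genes were called for this class. They held 74.7% to 78.4% of the *Hpgd* UMIs of the gated small intestinal cells while being 38.6% to 39.0% of them. In colon, PDGFRahi FB were called higher by 2.24 (SE 0.18, adjusted p = 2.19e-07) and held 50.8% to 64.5% of the *Hpgd* UMIs. CD81+ FB were second in colon (1.39, SE 0.20, adjusted p = 7.78e-05, below the fold threshold). SMC were called lower (-1.74, SE 0.28, adjusted p = 2.62e-04), where 7.6% of genes were called for colonic SMC, but not without colon replicate 1 (-1.38).

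The difference of the class effects for *Hpgd* was 2.13 in PDGFRahi FB (SE 0.50, adjusted p = 0.0223) and -1.86 in CD81+ FB (SE 0.36, adjusted p = 0.0173). In PDGFRahi FB it lost its call without small intestine replicate 1 (0.29) or 2 (1.37), and in CD81+ FB without colon replicate 1 (-1.88). Without pericytes the values were 2.24 and -2.03, and both passed. The summed level of the CD81+ FB markers in PDGFRahi FB was 2730 and 1350 CPM in small intestine and 467 and 286 CPM in colon. These markers helped to assign the classes, so their sum cannot show whether cells were misassigned, which was not tested.

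Of the EP receptors, *Ptger2* (chromosome 14, 44988195 to 45003820, plus strand), a receptor that raises cyclic AMP, was at 49.1 and 35.1 CPM in small intestinal and 49.0 and 25.6 CPM in colonic PDGFRahi FB. These ranges overlapped, and the difference between the intestines was -0.05 (SE 0.38, adjusted p = 0.998), of either sign with a library left out (0.19 without small intestine replicate 1, 0.30 without colon replicate 2). In small intestine PDGFRahi FB were called above the other classes, by 3.92 (SE 0.45, adjusted p = 1.58e-07) and by 1.62 without pericytes, which had 0 *Ptger2* UMIs there. In colon they overlapped with SMC (36.6 and 26.8 CPM) and PDGFRalo FB (39.1 and 20.6 CPM). The colonic calls in PDGFRahi FB (1.79, adjusted p = 2.51e-07) and SMC (1.51, adjusted p = 1.13e-04) rest on the pericytes, with 1 and 0 UMIs, and were 0.63 and 0.36 without them.

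*Ptger4* (chromosome 15, 5206661 to 5244187, minus strand), also a receptor that raises cyclic AMP, had its highest level in PDGFRalo FB, at 51.1 and 86.7 CPM in small intestine and 89.7 and 113 CPM in colon. In small intestine that class overlapped with CD81+ FB (39.1 and 53.3 CPM), and its call (1.55, SE 0.30, adjusted p = 2.83e-03) was lost without small intestine replicate 1 (1.20) and without pericytes (0.93). In colon the classes did not overlap from PDGFRalo FB through CD81+ FB (86.3 and 75.5 CPM) to PDGFRahi FB (44.1 and 58.3 CPM). No colonic class was called for *Ptger4* with all classes in the fit (SMC were, at -1.85, without pericytes), the value nearest the threshold being PDGFRalo FB at 1.49 (SE 0.19, adjusted p = 3.88e-05). *Ptger4* thus peaked in a class other than that of *Ptgs1* and *Ptgs2* in colon.

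*Ptger3* (chromosome 3, 157566892 to 157645888, plus strand), which codes for a receptor that lowers cyclic AMP, was sparse. It had 21 and 38 UMIs in colonic SMC (9.25 and 11.6 CPM) and 30 and 73 UMIs in colonic CD81+ FB (7.97 and 4.85 CPM), and both were called above the other colonic classes, by 4.04 (SE 0.61, adjusted p = 1.57e-05) and 3.21 (SE 0.66, adjusted p = 6.04e-04). Without pericytes, which had 0 UMIs, the values were 2.53 and 1.61 and the calls held. That of CD81+ FB was lost without colon replicate 1 (2.89). In small intestine it had 1 and 3 UMIs in SMC and 1 and 16 in CD81+ FB, and 0 in PDGFRahi FB, PDGFRalo FB and pericytes. The small intestinal call in SMC (adjusted p = 0.0249) thus rests on 4 molecules, and was lost with either library left out. The colonic CD81+ FB exceeded the small intestinal ones by 2.88 (SE 0.64, adjusted p = 0.232), which edgeR did not call and DESeq2 did.

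Colonic PDGFRahi FB were split by *Thbd* (coding for CD141) and *Cd9*, the surface markers by which these cells are known to divide: cells with a *Thbd* UMI, and cells without one whose *Cd9* level was above (Cd9hi) or below (Cd9lo) the median of the class in their library. There were 527 and 2005 Thbd+, 85 and 962 Cd9hi Thbd- and 29 and 520 Cd9lo Thbd- cells in replicates 1 and 2. *Ptgs2* was at 1269 and 1106 CPM in Cd9hi Thbd- cells, 1064 and 759 CPM in Cd9lo Thbd- cells and 432 and 314 CPM in Thbd+ cells. Thbd- cells of both kinds thus lay above Thbd+ cells in each library, and Cd9hi against Thbd+ cells differed by 1.77 (SE 0.09, adjusted p = 7.47e-10, called), or 1.55 and 1.82 within the libraries. In this comparison 5.15% of all genes were called, and *Ptgs2* alone of the 7 members tested was.

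Several other genes of the set differed between these sub-gates at less than the fold threshold, with an adjusted p that 21.6% of all genes passed. *Ptgs1* was at 659 and 474 CPM in Cd9hi Thbd- against 349 and 253 CPM in Thbd+ cells (0.99, SE 0.08, adjusted p = 2.27e-07), and *Ptges* at 248 and 170 against 147 and 104 CPM (0.81, SE 0.10, adjusted p = 9.58e-06). *Ptger4* was lower, at 29.9 and 38.5 against 44.8 and 67.9 CPM (-0.67, SE 0.13, adjusted p = 1.31e-03). *Ptgis* had 1 UMI (0.907 CPM) and 112 UMIs (24.5 CPM) in Cd9hi Thbd- cells against 178 and 166 CPM in Thbd+ cells. Both libraries were lower, with a log2 ratio of -2.76 in replicate 2, and the fitted value of -3.14 (SE 0.87) was not called (adjusted p = 0.297). *Hpgd* did not go one way, at 390 and 176 against 330 and 207 CPM (0.07, SE 0.11, adjusted p = 0.715).

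Against Cd9lo Thbd- cells, where 0.981% of genes were called, no member was called among Cd9hi Thbd- cells by edgeR, and 3 passed the adjusted p alone, as 4.81% of all genes did: *Ptgis* (lower, at 0.907 and 24.5 against 3.20 and 69.6 CPM, adjusted p = 1.40e-05), *Ptger4* (-0.96, SE 0.22, adjusted p = 3.98e-04) and *Hpgd* (0.91, SE 0.18, adjusted p = 6.77e-05). The log2 ratio of *Hpgd* was 2.02 in replicate 1 and 0.35 in replicate 2, and that of *Ptger4* -1.48 and -0.75. For *Ptgs2* this difference was 0.35 (SE 0.19, adjusted p = 0.459). The summed immediate early genes were at 48033 and 49014 CPM in Cd9hi Thbd-, 60285 and 49831 CPM in Cd9lo Thbd- and 41584 and 43869 CPM in Thbd+ cells. Median depth was 13151 and 4707.5 UMIs in Cd9hi Thbd- and 10178 and 3769 UMIs in Thbd+ cells. Neither was tested for its part in the result.

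**Figure D4:**
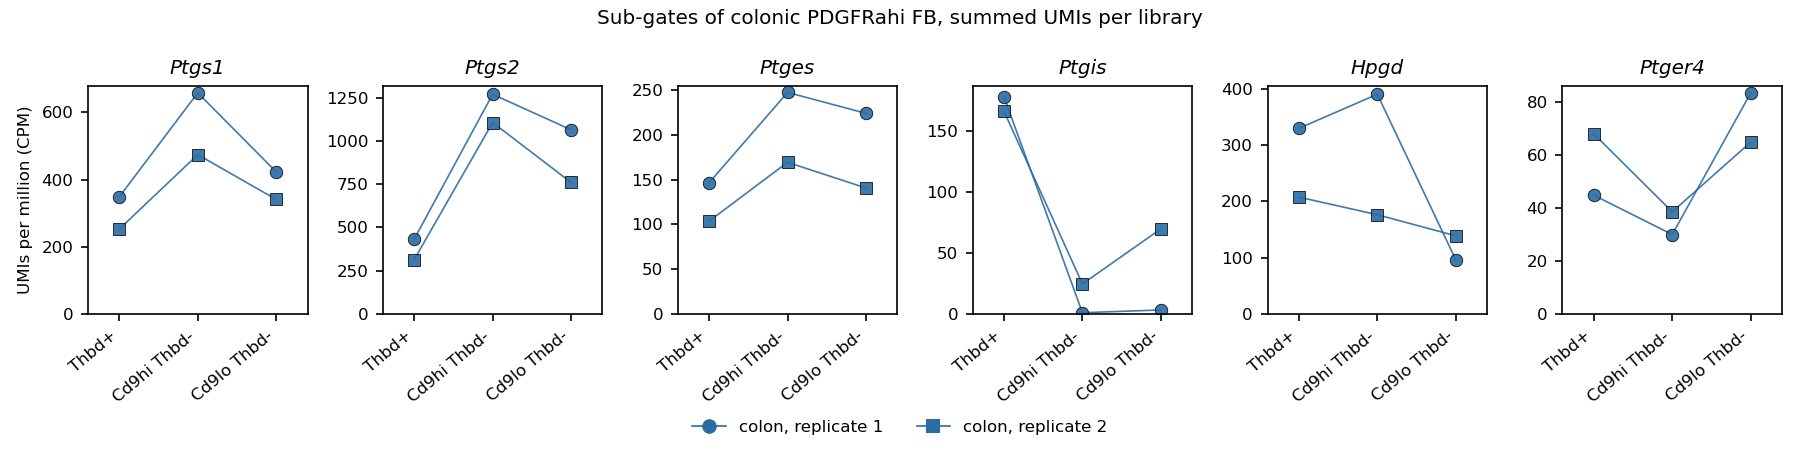
Level (CPM, linear axis from 0) of 6 genes in the Thbd+, Cd9hi Thbd- and Cd9lo Thbd- sub-gates of colonic PDGFRahi FB, with a line for each of the 2 libraries. *Ptgs2* is lowest in Thbd+ cells of both libraries (432 and 314 CPM) and *Ptgis* highest there (178 and 166 CPM).

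Small intestinal PDGFRahi FB held too few Thbd- cells in replicate 1 for a fit (8 Cd9hi and 11 Cd9lo). In replicate 2, *Ptgs2* was at 160 CPM in 1174 Thbd+ cells, 188 CPM in 169 Cd9hi Thbd- cells and 185 CPM in 366 Cd9lo Thbd- cells, so its 3 sub-gates were all below the lowest colonic one.

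Colonic PDGFRalo FB were split into cells with an *Fgfr2* UMI and none of *Thy1* (172 and 593 cells) and the reverse (95 and 579 cells). No member was called, where 0.887% of all genes were, and 5 of the 7 tested passed the adjusted p below the fold threshold, all lower in Thy1+ cells, where 7.77% of all genes passed the adjusted p. The values were -1.36 for *Ptgs1* (61.0 and 36.9 against 149 and 93.5 CPM, SE 0.14, adjusted p = 9.82e-13), -1.21 for *Ptgis*, -0.70 for *Hpgd*, -0.65 for *Ptger4* and -0.43 for *Ptgs2*. The size depended on the library for *Ptger4* (log2 ratios of -1.05 and -0.41) and *Ptgs2* (-0.84 and -0.21). *Ptges* (0.10, SE 0.11, adjusted p = 0.760) and *Ptger2* (0.22, SE 0.21, adjusted p = 0.681) did not pass.

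Other genes of eicosanoid metabolism were read from a list of 43, of which 41 were in the files and 28 were tested in the class contrasts. Between the intestines, 1 of the 21 tested in PDGFRahi FB was called, and 0 of 24 in CD81+ FB, 25 in PDGFRalo FB, 18 in SMC and 6 in pericytes (edgeR). The 1 was *Tbxas1*, thromboxane synthase, which competes for the same cyclooxygenase product. It had 1 UMI in each small intestine library and 194 and 615 UMIs in colon, a ratio of CPM of 107.9 (95% counting interval 29.8 to 893) with an adjusted p of 0.0305 (edgeR). The gene passed the filter on low counts only through its colonic UMIs and was named for this call. Its values are thus a description and no independent support. Against the other colonic classes, *Tbxas1* was also called higher in PDGFRahi FB (4.45, SE 0.31, adjusted p = 1.62e-11), and in Cd9hi Thbd- against Thbd+ cells (2.50, SE 0.15, adjusted p = 3.52e-09).

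The list's counts by class are given with the share of all genes called in the same contrast. In PDGFRahi FB 4 of 28 were higher and 1 lower in small intestine, and 4 higher and 2 lower in colon. Medians were -0.09 and -0.07 against 0.14 and 0.04 over all genes, of which 8.36% and 8.8% were called. In CD81+ FB 3 were higher and 2 lower, then 2 and 1 (7.49% and 7.47% of all genes). In PDGFRalo FB they were 2 and 1, then 3 and 1 (4.73% and 5.66%). SMC had 1 and 0, then 2 and 0 (3.56% and 7.6%), and pericytes 2 and 2, then 4 and 5 (9.69% and 11.0%). Whether the list was called more often than other genes was not tested. The following were picked after their values were seen. *Pla2g4a*, the cytosolic phospholipase that frees arachidonic acid, was highest in PDGFRahi FB, at 151 and 193 CPM in small intestine and 316 and 329 CPM in colon. *Abcc4*, an exporter of prostaglandins, was at 26.4 to 45.7 CPM in PDGFRahi FB of the 4 libraries and at 2.19 to 5.23 CPM in the other FB. *Ptgfr*, the prostaglandin F receptor, was highest in CD81+ FB (6.18 to 20.4 CPM), *Tbxa2r*, the thromboxane receptor, in SMC (26.3 to 67.0 CPM), and *Ptgir*, the prostacyclin receptor, in pericytes (65.6 to 146 CPM).

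Genes most like each member were ranked by Pearson's r of log2(CPM + 1) over the 20 class by library sums, among 6342 genes. These sums share libraries and classes, so r is a description. Among the closest were *Rgs10* (0.90), *Dkk3* and *Emilin1* for *Ptgs1*, *Antxr2* (0.90) and *Ugcg* for *Ptgs2*, and *Insig1* (0.87), *Cd63* and *Timp1* for *Ptges*. For *Ptgis* they were *Ier3ip1* (0.90), *Dbi* and *Lman2*, for *Hpgd* *Uap1l1* (0.93), *Adm* and *Larp6*, and for *Ptger4* *Cdk14* (0.94), *C1qtnf3* and *Rps12*. No gene named here was listed for more than 1 member.

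The annotation bears on some of these values. *Ptges* shares its strand with an overlapping gene, *Gm13400*, and *Hpgd* with *Gm45540*, so reads there could be assigned to either. *Ptgs1*, *Ptgis*, *Ptger2* and *Ptger4* overlap genes only on the other strand, while *Ptgs2* and *Ptger3* overlap none. The study used 3′ and 5′ chemistries, and which library had which is not given in the sources used here. Cell barcodes that start with AAACCT were found in both replicate 1 libraries only (6 in small intestine, 9 in colon) and those with AAACCC in both replicate 2 libraries only (18 and 11), so the barcode sets differed with the replicate number and not with the intestine.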

How the data were processed

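UMIs were counted in 4 libraries of sorted mesenchymal stromal cells. Per the labels, the authors mapped reads to mm10 with Cell Ranger 3.0.2, and the deposited files hold raw UMI counts per gene and barcode. The headers of both replicate 2 libraries name version 3.1.0, and the paper names both versions. The members and gene lists were chosen with earlier results of these data known. Kept were barcodes that reached 500 genes and 1000 UMIs, with no more than 10% of UMIs mitochondrial. No doublet caller was run, and 167 barcodes above 4 times the library's median UMIs or with markers of 2 lineages were removed. Cells took a class when the negative binomial likelihood of 84 marker genes gave it a posterior of 0.9 or more. Between 0.8 and 0.95 lay 3652 cells (11.4%). Counts were summed per class and library and tested with edgeR 4.0.16 (quasi-likelihood, TMM, filter on low counts, Benjamini-Hochberg adjustment over all genes tested) in R 4.3.3. Class contrasts, each class against the mean of the others, had the library as a block. The sub-gate fits had the same block. DESeq2 1.42.0, other filters and gates, size factors, a replicate block and leaving out each library were alternatives. The script was tested on simulated data. Named were the 9 members, other eicosanoid genes called between the intestines, and the 3 genes most correlated with each member at 50 CPM or more in a class, of which 1 is not reported here.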

Additional observations from a re-analysis of the deposited data

Results flagged for a closer look

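Differences between the intestines in how a class stood against the other classes were tested directly, and 5 of 40 passed (edgeR quasi-likelihood test, adjusted p under 0.05). Of all genes, 5.28% passed in PDGFRahi FB and 1.29% in CD81+ FB. In PDGFRahi FB, colon minus small intestine, the values that passed were 3.235 for *Ptgs2*, 1.455 for *Ptges*, -1.456 for *Ptgis* and 2.133 for *Hpgd*. In CD81+ FB the value was -1.864 for *Hpgd*. Without pericytes *Ptges* was 0.77 and did not pass (adjusted p = 0.237, edgeR), and the others passed. The values of *Ptgs2* and *Ptges* changed sign with a library left out, as described above.

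Interstitial cells of Cajal, which belong to none of the classes compared, were 19 and 55 cells in colon and 1 cell in small intestine. In colon they carried *Hpgd* at 1144 CPM in replicate 1 and 831.3 CPM in replicate 2, from 234 and 196 UMIs, and *Ptger3* at 29.34 and 131.5 CPM, from 6 and 31 UMIs. No comparison was made with them.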

How the results depend on the processing

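For 45 single values of members, 556 alternative values were computed, of which 485 kept direction and side of the threshold, 50 lost the call, 14 gained it and 7 changed sign. Those 7 were *Ptger2* between the intestines in PDGFRahi FB (0.70 with leading markers alone, 0.19 without small intestine replicate 1, 0.30 without colon replicate 2, and down to -0.48 with a library left out), *Ptger4* in SMC (0.042 without small intestine replicate 2, and down to -1.85 with a library left out), and the class differences in PDGFRahi FB of *Ptgs2* (-0.061 without small intestine replicate 1, up to 3.70 with a library left out) and *Ptges* (-0.62 without small intestine replicate 2, and -2.07 without it and pericytes, up to 1.76 with a library left out). The cause was not tested.

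Same-numbered libraries deviated together (correlations 0.715, 0.692, 0.759, 0.58 and 0.398 in PDGFRahi FB, CD81+ FB, PDGFRalo FB, SMC and pericytes), but the labels do not tie the numbers. With the replicate block, 4 members were called between the intestines, and 899, 413, 619, 420 and 72 genes in the same order of classes. Leading markers alone replace the score by any UMI of a marker such as *Pdgfra* or *Myh11*, and mixed profiles, removed in an alternative chosen after the data were seen, are barcodes better described by a mix of classes. Members called were 4 with DESeq2, 5 without a filter on low counts, 1 with mixed profiles removed and 0 to 2 with a library left out. Genes called were 538, 284, 360, 175 and 4 with DESeq2, 551, 285, 349, 420 and 3 without the filter, and 87, 1, 86, 5 and 28 with leading markers alone. They were 33 in CD81+ FB and 124 in SMC with mixed profiles removed, and 13 in pericytes from 1000 genes per barcode. With a library left out they ranged from 0 to 414, 0 to 75, 0 to 195, 39 to 236 and 6 to 17.

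Class contrasts called 8 to 14 members in small intestine and 15 to 20 in colon with a library left out, and 11 in colon without pericytes. Genes called with a library left out were 475 to 1093 and 858 to 1167 in PDGFRahi FB (small intestine, then colon), 544 to 1003 and 814 to 991 in CD81+ FB, 184 to 598 and 462 to 725 in PDGFRalo FB, 173 to 496 and 851 to 988 in SMC, and 252 to 1269 and 584 to 1392 in pericytes. Without pericytes they were 243 and 466 in PDGFRalo FB. Differences of class effects called 2 to 7 members with a library left out, also in fits without pericytes, and 8 without pericytes alone. Their gene counts were 159 to 808, 25 to 317, 5 to 96, 13 to 234 and 6 to 92 with a library left out, and 1040, 401, 100 and 232 without pericytes. Leaving out a library leaves 1 in that intestine, which is assumed to vary like the others. Depth limits *Ptger3*, *Ptgds* and every pericyte value.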
